A study of Mus musculus with 6 samples.

Results

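The galectins are lectins that bind galactose-ended sugar chains on glycoproteins, and 8 genes were followed: Lgals1, Lgals2, Lgals3, Lgals4, Lgals7, Lgals8 and Lgals9, which encode 7 galectins, and Lgals3bp, which encodes a secreted glycoprotein that galectins bind. They were chosen by gene name from the 57462 genes listed for each library, and each name had 1 row. The samples were 6 tumours formed by HM1, a murine ovarian cancer cell line, and the series calls its model early without defining the term. The line carried a short hairpin RNA against ST3GAL3 (shST3GAL3, labelled as a knockdown) in 3 tumours and a control hairpin (shControl, labelled wild type) in the other 3. Age, strain and site of the host are not given in the labels, nor whether each library is a separate mouse. The tests therefore cover the variation among these libraries alone, part of which may be technical. Levels are in TPM, transcript numbers corrected for gene length and scaled to the same total in every library, and sequencing depth cannot be read from them. Between 13930 and 14762 genes reached 1 TPM in a library.

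Galectins leave cells by a route that bypasses the usual secretory pathway and cross-link surface glycoproteins into lattices. Sialic acid placed on the galactose can mask or alter the site that many of them bind, which is why the family is of interest where a sialyltransferase such as ST3GAL3 is reduced. In tumours, galectin-1 is known for driving T cell death and vessel growth, and galectin-3 is a marker of macrophages and of many carcinomas. Galectin-9 is an interferon-inducible ligand of TIM-3, a receptor found on T cells among others. Galectin-4 is typical of gut epithelium and galectin-7 of stratified epithelium such as skin.

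St3gal3 itself stood at 8.44, 6.77 and 7.49 TPM in shST3GAL3 1, 2 and 3, against 14.03, 13.84 and 13.79 TPM in shControl 1, 2 and 3, so 54.5% of the shControl mean was left in these whole tumours, host cells included. Keratin genes were abundant, and whether their transcripts came from the line was not tested. Krt8 + Krt18 + Krt19 summed to 1754, 2681 and 3190 TPM in shST3GAL3 1, 2 and 3. In shControl 1, 2 and 3 the sums were 3274, 3669 and 3190 TPM. Among the other listed epithelial or ovarian markers, Msln stood at 13.64 to 19.78 TPM and Cdh1 at 2.44 to 9.46 TPM over the 6 libraries, while Krt7 reached at most 0.85 TPM, Epcam 1.17, Pax8 1.65 and Wt1 3.01. The library shST3GAL3 1 stood apart, with the lowest keratin sum and the highest sums of macrophage, fibroblast and endothelial markers. Fold changes of the members are given with and without it where it moved them by over 1.5 times. For some other genes that it dominates the value in each library is given. Others are given as mean and SD, among them B4galt1, Tnfrsf9, Neu1, Neu3 and Atg16l1, each highest in shST3GAL3 1.

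The promoters of the 3 members on which the results turn are printed first. Lgals9 was the 1 member whose groups did not overlap, and Lgals3 and Lgals3bp are abundant members whose groups did. RefSeq on build GRCm38.p6 held promoter windows for 7 of the 8 members, each 300 bases long, from 250 before the start site to 50 after it. Capitals mark matches, on either strand, to letters known for interferon regulatory factors (GAAA, any 2 bases, GAAA), STAT factors (TTCNNNGAA), AP-1 (TGANTCA), Sp1 (GGGCGG) or the TATA box (TATAAA). No matches to different motifs overlapped in these windows. The windows lie at chr11:78984875-78985174 (minus strand) for Lgals9, chr14:47373610-47373909 (plus strand) for Lgals3 and chr11:118401910-118402209 (minus strand) for Lgals3bp.
Lgals9: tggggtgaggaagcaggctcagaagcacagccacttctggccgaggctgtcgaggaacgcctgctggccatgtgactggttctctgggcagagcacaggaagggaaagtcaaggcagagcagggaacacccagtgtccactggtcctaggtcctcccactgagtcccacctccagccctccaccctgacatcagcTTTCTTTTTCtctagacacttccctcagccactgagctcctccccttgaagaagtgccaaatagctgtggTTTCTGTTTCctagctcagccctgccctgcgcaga
Lgals3: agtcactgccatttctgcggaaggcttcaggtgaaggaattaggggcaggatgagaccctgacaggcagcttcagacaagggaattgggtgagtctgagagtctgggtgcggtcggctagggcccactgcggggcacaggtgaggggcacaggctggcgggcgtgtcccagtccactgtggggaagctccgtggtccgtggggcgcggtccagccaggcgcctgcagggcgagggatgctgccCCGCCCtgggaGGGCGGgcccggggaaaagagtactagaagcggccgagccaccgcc
Lgals3bp: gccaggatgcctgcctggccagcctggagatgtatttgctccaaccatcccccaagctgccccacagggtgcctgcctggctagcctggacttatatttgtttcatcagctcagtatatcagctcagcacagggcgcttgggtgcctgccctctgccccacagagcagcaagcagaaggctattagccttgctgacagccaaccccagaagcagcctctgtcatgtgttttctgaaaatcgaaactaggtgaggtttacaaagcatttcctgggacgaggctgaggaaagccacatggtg

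The Lgals9 window held 2 matches to the interferon regulatory factor letters, TTTCTTTTTC beginning 55 bases before the start site and TTTCTGTTTC beginning at base 16 of the transcript, both on the strand opposite to the gene. A match to these letters was found in 3.44% of all 32851 promoter windows, and 2 or more in 0.225%. None of the other 6 members with a window held an exact match. Near matches were not counted in any window. The Lgals3bp window holds aaaatcgaaa, which differs from these letters in its first base only. The Sp1 letters, found in 35.7% of all windows, matched in Lgals3 at 7 bases before the start site and at base 5 after it, and also in Lgals4 and Lgals7. The STAT letters (8.30% of windows), the AP-1 letters (7.81%) and the TATA letters (13.6%) matched in none of the 7 members with a window. Lgals1 had no window, so its promoter was not searched for any of these letters. Such matches are descriptions of letters, not binding sites.

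Lgals1 was the most abundant member and Lgals7 the least. Averaged over all 6 libraries, the levels were 3278 TPM for Lgals1, 799 for Lgals3, 536 for Lgals3bp, 84.9 for Lgals9, 52.9 for Lgals8, 4.64 for Lgals2, 2.69 for Lgals4 and 1.07 for Lgals7. Every neighbour in this order was higher than the next in 6 of 6 libraries. The ranges over libraries overlapped for Lgals2 with Lgals4 and for Lgals4 with Lgals7, and not for the other neighbours. The level of Lgals8 depends on the length assumed. Its listed length of 1148 bases equals that of the shortest of its 6 coding transcripts in GENCODE M21, which run up to 2843 bases. Whether the listed length was the divisor is not given in the sources used here. The pseudogenes Lgals1-ps1 and Lgals1-ps2 were listed at 0.18 TPM or less in every library. Lgals6, a close relative of Lgals4 in some mouse strains, was looked up and had no row under that name.

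**Figure D1:**
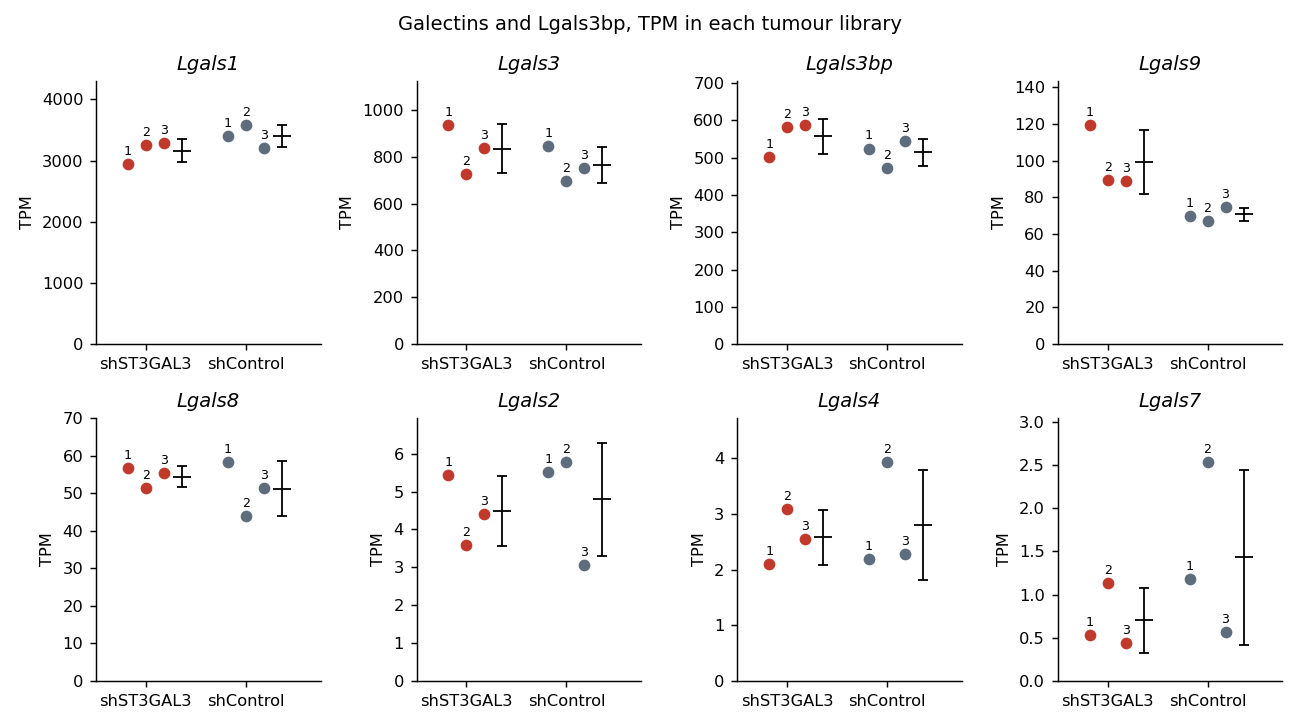
TPM of the 8 members in each library (points, numbered by replicate), with mean and SD (bars, n = 3), shST3GAL3 left and shControl right; every axis starts at 0. For Lgals9 the shST3GAL3 points lie between 88.75 and 119 TPM, above the shControl points at 67.34 to 74.55 TPM, and for the other 7 genes the groups overlap.

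Lgals9 (ENSMUSG00000001123, chromosome 11) had the largest positive fold change of the 8 members and the only one whose groups were apart, but was not called once p was adjusted over all genes. It stood at 119.45, 89.53 and 88.75 TPM in shST3GAL3 1, 2 and 3, against 70.06, 67.34 and 74.55 TPM in shControl 1, 2 and 3. No shST3GAL3 library was as low as any shControl library, and shST3GAL3 1 was well above the other 2. The means were 99.2 ± 17.5 TPM in shST3GAL3 and 70.7 ± 3.64 TPM in shControl tumours (SD, n = 3 each), 1.40 times as high in shST3GAL3. The log2 fold change on the log2(TPM + 1) scale was 0.47 (SE 0.13, 95% interval 0.17 to 0.78; limma adjusted p = 0.380, and 0.00845 before adjustment). By exact permutation of the 6 libraries p was 0.1 (two-sided), which is the lowest value this design can reach. Without shST3GAL3 1 the log2 fold change was 0.33 (limma adjusted p = 0.304).

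Non-overlap in this direction was common in these tumours. It was seen for 1 of the 8 members and for 2232 of the 14207 genes tested, or 15.7%. In the other direction it was seen for 0 members and 7.76% of genes. By limma, 0 of 8 members had an adjusted p under 0.05, where 1 of the 14207 genes had (0.00704%), and 1 member, Lgals9, had an unadjusted p under 0.05, where 13.0% of genes had. Of the 8 members 4 had a positive log2 fold change, against 52.7% of all genes, and their median of 0.02 stood beside a median of 0.01 over all genes. The members' counts were thus near the background.

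**Figure D2:**
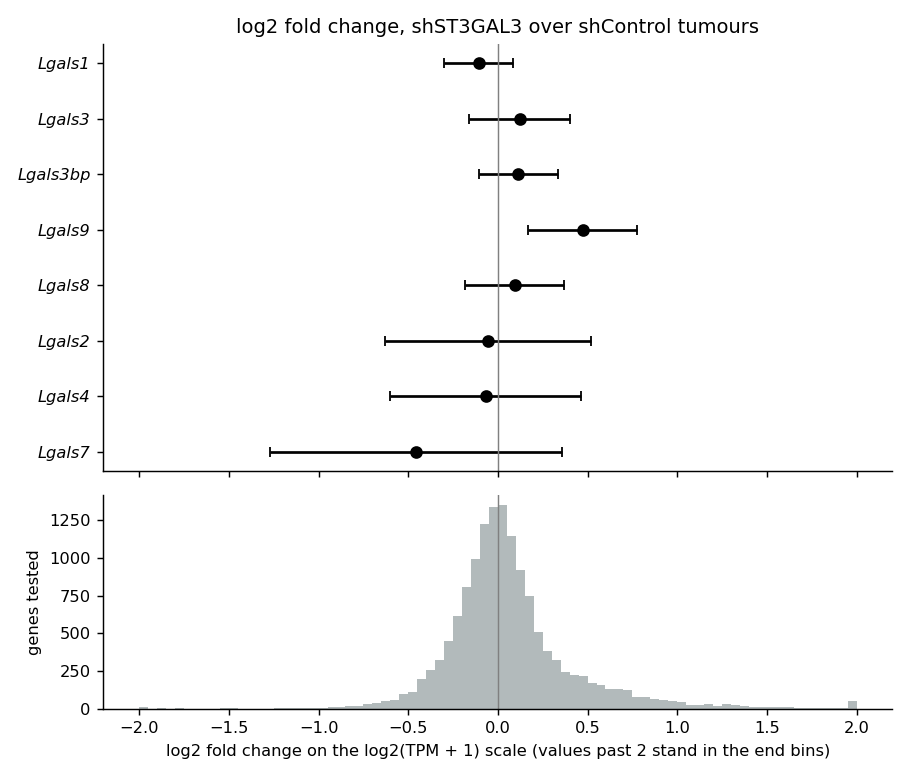
Above, log2 fold change of each member, shST3GAL3 over shControl, with its 95% interval from limma; below, the same quantity for all 14207 genes tested. Only the interval of Lgals9 (0.17 to 0.78) leaves out 0, before any adjustment for the number of genes, and the medians are 0.02 for members and 0.01 for all genes.

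Lgals1 (ENSMUSG00000068220, chromosome 15), whose product is a small homodimeric galectin of tumour and stromal cells, had similar levels in both groups. It stood at 2942, 3246 and 3284 TPM in shST3GAL3 1, 2 and 3, against 3405, 3582 and 3212 TPM in shControl 1, 2 and 3. The lowest value was that of shST3GAL3 1, and the groups overlapped through shControl 3. The log2 fold change was -0.11 (SE 0.08, 95% interval -0.30 to 0.08; limma adjusted p = 0.548). Without shST3GAL3 1 it was -0.06.

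Lgals3 (ENSMUSG00000050335, chromosome 14) encodes the only chimera-type galectin, with a long tail that lets it form oligomers. It stood at 935.99, 727.02 and 837.58 TPM in shST3GAL3 1, 2 and 3, against 845.94, 694.62 and 752.35 TPM in shControl 1, 2 and 3. Both groups ran from about the same low to a high in their replicate 1, with wide overlap. The log2 fold change was 0.12 (SE 0.12, 95% interval -0.16 to 0.40; limma adjusted p = 0.636), and it was 0.03 without shST3GAL3 1 and 0.22 without shST3GAL3 2.

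Lgals3bp (ENSMUSG00000033880, chromosome 11), whose secreted product binds galectin-3 and is known to be interferon-inducible, was also within the spread. It stood at 502.28, 581.74 and 588.08 TPM in shST3GAL3 1, 2 and 3, against 524.76, 473.64 and 544.87 TPM in shControl 1, 2 and 3. The library shST3GAL3 1, highest for Lgals9 and Lgals3, was the lowest of its group here. The log2 fold change was 0.11 (SE 0.09, 95% interval -0.11 to 0.33; limma adjusted p = 0.574). Without shST3GAL3 1, shST3GAL3 2 and 3 both lay above all shControl values, and the log2 fold change was 0.19 (limma adjusted p = 0.427, and 0.0467 before adjustment).

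Lgals8 (ENSMUSG00000057554, chromosome 13), a galectin with a pair of sugar-binding domains that also marks damaged endosomes, stood at 56.62, 51.43 and 55.34 TPM in shST3GAL3 1, 2 and 3, against 58.46, 43.84 and 51.49 TPM in shControl 1, 2 and 3. All shST3GAL3 values lay inside the shControl range. Its log2 fold change of 0.09 (SE 0.12, limma adjusted p = 0.710) was -0.012 without shControl 2, so no direction can be given.

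The 3 remaining galectins were scarce. Lgals2 (ENSMUSG00000043501, chromosome 15), a galectin of the gut and of some myeloid cells, stood at 5.44, 3.60 and 4.40 TPM in shST3GAL3 1, 2 and 3, against 5.51, 5.79 and 3.07 TPM in shControl 1, 2 and 3. The shControl group held both the highest and the lowest value. Lgals4 (ENSMUSG00000053964, chromosome 7) stood at 2.10, 3.08 and 2.55 TPM in shST3GAL3 1, 2 and 3, against 2.19, 3.94 and 2.28 TPM in shControl 1, 2 and 3. Lgals7 (ENSMUSG00000053522, chromosome 7) stood at 0.53, 1.13 and 0.44 TPM in shST3GAL3 1, 2 and 3, against 1.18, 2.54 and 0.57 TPM in shControl 1, 2 and 3. For Lgals4 and Lgals7 alike, shControl 2 was the highest library and shST3GAL3 2 the highest of its group. The log2 fold changes were -0.06 (SE 0.24) for Lgals2, -0.07 (SE 0.22) for Lgals4 and -0.46 (SE 0.34) for Lgals7, with limma adjusted p of 0.926, 0.902 and 0.548. Without shST3GAL3 1 the value for Lgals2 was -0.18 and for Lgals4 0.03. The sign turned for Lgals2 without shST3GAL3 2, shControl 1 or shControl 2 and for Lgals4 without shST3GAL3 1 or shControl 2, and the value for Lgals7 was -0.14 without shControl 2, -0.73 without shControl 3 and -0.81 with a pseudocount of 0.1 in place of 1. Lgals7 passed the filter on low values, a TPM of 1 or more in 3 libraries, in exactly 3, and the other 7 members did so in all 6.

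Markers of the tissues that Lgals4 and Lgals7 are typical of were mostly near 0. Of 8 intestinal epithelium markers, 5 were under 1 TPM in every library, among them Vil1, Fabp2 and Muc2, and the list summed to 13.5 to 24.1 TPM in shST3GAL3 and 19.1 to 24.5 TPM in shControl tumours. Its transcription factor Cdx2 and its keratin Krt20 were present, at 4.23 to 7.81 and 7.38 to 14.32 TPM in shST3GAL3 and 7.02 to 9.08 and 7.03 to 14.40 TPM in shControl tumours. Of 8 stratified epithelium markers, 6 were under 1 TPM in every library, with Krt5 at 0.03 TPM or less, Krt14 at 0.11 or less and Dsg3 at 0 throughout. Krt10 was present, at 2.93 to 3.81 TPM in shST3GAL3 and 3.49 to 5.10 TPM in shControl tumours. Sfn stood at 1.02 to 2.80 TPM in shST3GAL3 and 0.86 to 1.37 TPM in shControl tumours. That list summed to 4.59 to 5.89 TPM in shST3GAL3 and 4.78 to 6.53 TPM in shControl tumours.

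Together the 7 galectins summed to 4062, 4122 and 4273 TPM in shST3GAL3 1, 2 and 3, against 4388, 4400 and 4096 TPM in shControl 1, 2 and 3, or 0.406% to 0.427% and 0.410% to 0.440% of each library. The groups overlapped (log2 ratio of the means -0.05, exact two-sided permutation p = 0.3). Lgals1 made up 76.0% ± 3.25 of this sum in shST3GAL3 and 79.1% ± 2.01 in shControl tumours (SD, n = 3 each), and Lgals3 20.1% ± 2.74 and 17.8% ± 1.81. Lgals9 made up 2.94%, 2.17% and 2.08% in shST3GAL3 1, 2 and 3, against 1.60%, 1.53% and 1.82% in shControl 1, 2 and 3, without overlap (exact two-sided permutation p = 0.1). Within a library there were 24.6, 36.3 and 37.0 Lgals1 transcripts for each of Lgals9 in shST3GAL3 1, 2 and 3, against 48.6, 53.2 and 43.1 in shControl 1, 2 and 3. This ratio does not depend on how libraries are scaled to each other, and its groups did not overlap either (exact two-sided permutation p = 0.1).

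**Figure D3:**
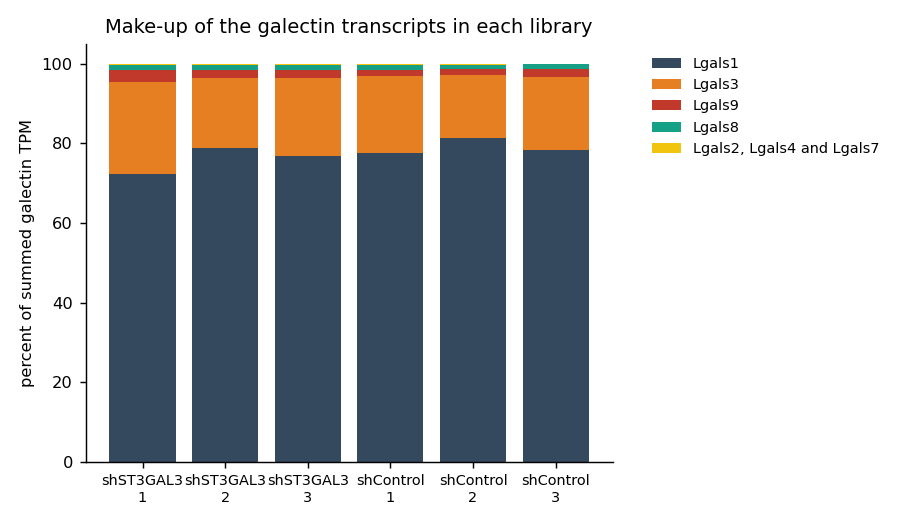
Percent of the summed TPM of the 7 galectins taken by each, in each library. Lgals1 and Lgals3 fill most of every bar, and Lgals9 takes 2.08% to 2.94% in the shST3GAL3 and 1.53% to 1.82% in the shControl libraries.

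Summed transcripts of macrophages and stromal cells were also higher in the shST3GAL3 tumours. In bulk tissue, more cells of a type and more RNA per cell cannot be told apart. All 10 macrophage markers had a positive log2 fold change, as had 52.7% of all genes. Of these markers 4 lay wholly above shControl, as did 15.7% of all genes. Wholly above were also 7 of 8 fibroblast, 6 of 6 endothelial, 3 of 9 T cell, 1 of 5 NK cell and 1 of 5 neutrophil markers tested. The macrophage list summed to 1393 to 2467 TPM in shST3GAL3 and 1173 to 1377 TPM in shControl tumours. The groups were close here, with shST3GAL3 3 at 1393 TPM and shControl 1 at 1377 TPM. The summed T cell markers were 80.6 to 167.9 TPM in shST3GAL3 and 64.1 to 89.3 TPM in shControl tumours, with overlap. The fibroblast markers summed to 1176 to 6237 TPM in shST3GAL3 and 626 to 1017 TPM in shControl tumours, and the endothelial markers to 79.5 to 200.5 TPM in shST3GAL3 and 41.7 to 56.3 TPM in shControl tumours. Summed NK cell markers were 31.0 to 53.8 TPM in shST3GAL3 and 27.6 to 34.1 TPM in shControl tumours, and neutrophil markers 53.1 to 296.4 TPM and 64.4 to 122.3 TPM. Skeletal muscle markers were 3.98 to 283 TPM in shST3GAL3 and 3.21 to 82.5 TPM in shControl tumours, highest in shST3GAL3 2. The median log2 fold change was 0.27 over 2 eosinophil markers and 1.68 for the 1 adipocyte marker tested. The 15 interferon-induced genes listed summed to 1536 to 1755 TPM in shST3GAL3 and 882 to 1235 TPM in shControl tumours, and for 10 of them shST3GAL3 lay wholly above shControl, as for 15.7% of all genes. Socs1, an inhibitor of interferon signalling, stood at 10.1 ± 0.849 TPM in shST3GAL3 and 5.54 ± 0.622 TPM in shControl tumours, and the GTPase gene Irgm2 at 86.4 ± 9.54 TPM in shST3GAL3 and 53.9 ± 6.88 TPM in shControl tumours (SD, n = 3 each; limma adjusted p = 0.380 for each). No listed marker or interferon-induced gene was called over all genes. The part of any of these in the Lgals9 difference was not tested.

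Against the leukocyte transcript Ptprc, which encodes CD45, Lgals9 did not differ beyond the spread. The ratio of Lgals9 to Ptprc was 2.50, 2.10 and 3.16 in shST3GAL3 1, 2 and 3, against 2.50, 2.42 and 2.62 in shControl 1, 2 and 3 (exact two-sided permutation p = 0.9). The shST3GAL3 libraries thus lay on both sides of the shControl range. In shST3GAL3 3, Lgals9 was above every shControl library at a Ptprc level of 28.05 TPM, inside the shControl range of 27.85 to 28.45 TPM. The ratio of Lgals9 to the macrophage transcript Cd68 was 0.539, 0.625 and 0.716 in shST3GAL3 1, 2 and 3, against 0.610, 0.680 and 0.692 in shControl 1, 2 and 3 (exact two-sided permutation p = 0.7). For Lgals3 the ratio to Cd68 was 4.22, 5.08 and 6.76 in shST3GAL3 1, 2 and 3, against 7.36, 7.01 and 6.99 in shControl 1, 2 and 3, all shST3GAL3 values being lower (exact two-sided permutation p = 0.1). These ratios were chosen after the values were seen, and the sign of the Lgals9 ratios turned when shST3GAL3 3 (Ptprc) or shST3GAL3 1 (Cd68) was left out.

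**Figure D4:**
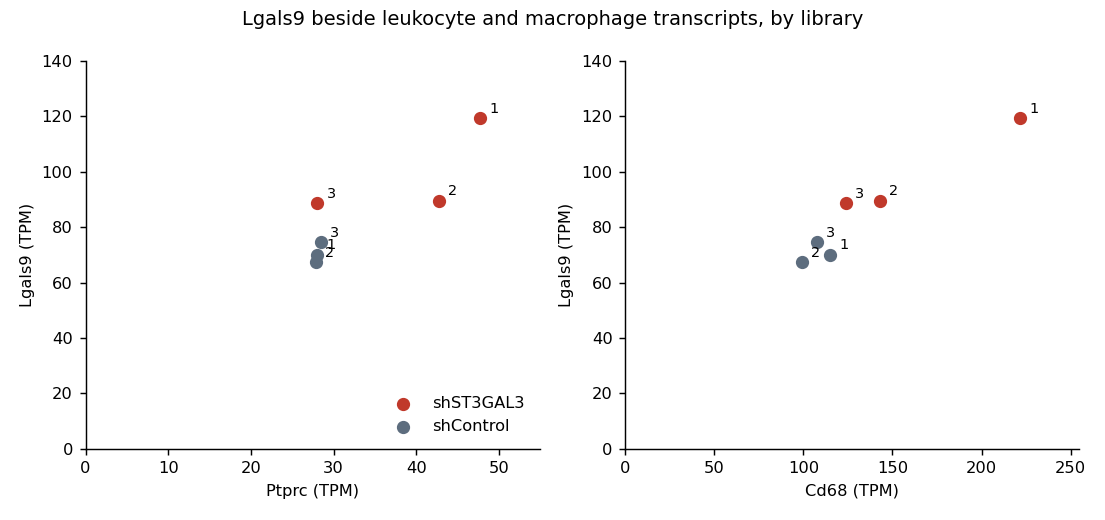
Lgals9 TPM against Ptprc TPM (left) and Cd68 TPM (right), 1 point per library, numbered by replicate. In both panels shST3GAL3 1 is farthest right and highest at 119 TPM of Lgals9, while shST3GAL3 3 lies at a Ptprc level inside the shControl range, 28.05 TPM, with 88.75 TPM of Lgals9.

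Set against Krt8, Krt18 and Krt19, 3 members, Lgals3, Lgals3bp and Lgals9, had higher ratios in the shST3GAL3 tumours, and Lgals1 overlapped. Such ratios were not computed for Lgals2, Lgals4, Lgals7 and Lgals8. The share of all genes with a higher ratio was not computed either. These keratins had negative log2 fold changes. Of the 6 epithelial tumour cell markers tested, 3 were positive, namely Cdh1 (0.46), Wt1 (0.34) and Msln (0.01), all with overlap. Cdh1 stood at 9.46, 2.58 and 2.89 TPM in shST3GAL3 1, 2 and 3, against 2.94, 3.14 and 2.44 TPM in shControl 1, 2 and 3. Wt1 stood at 3.01, 1.18 and 0.58 TPM in shST3GAL3 1, 2 and 3, against 1.48, 0.49 and 0.85 TPM in shControl 1, 2 and 3. Both were highest in shST3GAL3 1. Ratios to Cdh1, Wt1 and Msln were not computed. The keratin sums barely separated, at 3189.83 TPM in shST3GAL3 3 and 3190.04 TPM in shControl 3. The keratin sum itself averaged 2542 ± 728 TPM in shST3GAL3 and 3378 ± 256 TPM in shControl tumours (SD, n = 3 each; log2 ratio of the means -0.41, exact two-sided permutation p = 0.1), which by itself raises each ratio. The ratio to Krt8 + Krt18 + Krt19 was 0.534, 0.271 and 0.263 for Lgals3 in shST3GAL3 1, 2 and 3, against 0.258, 0.189 and 0.236 in shControl 1, 2 and 3. For Lgals3bp it was 0.286, 0.217 and 0.184 in shST3GAL3 1, 2 and 3, against 0.160, 0.129 and 0.171 in shControl 1, 2 and 3. For Lgals9 it was 0.0681, 0.0334 and 0.0278 in shST3GAL3 1, 2 and 3, against 0.0214, 0.0184 and 0.0234 in shControl 1, 2 and 3. None of the 3 overlapped (exact two-sided permutation p = 0.1 for each), and among the shST3GAL3 libraries each ratio was highest where the keratin sum was lowest, in shST3GAL3 1. For Lgals1 the ratio was 1.68, 1.21 and 1.03 in shST3GAL3 1, 2 and 3, against 1.04, 0.976 and 1.01 in shControl 1, 2 and 3, with overlap (exact two-sided permutation p = 0.2). Without shST3GAL3 1 the log2 ratios of the means for Lgals3, Lgals3bp, Lgals9 and Lgals1 were 0.23, 0.39, 0.54 and 0.15, where they were 0.64, 0.58, 1.03 and 0.37 with it.

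**Figure D5:**
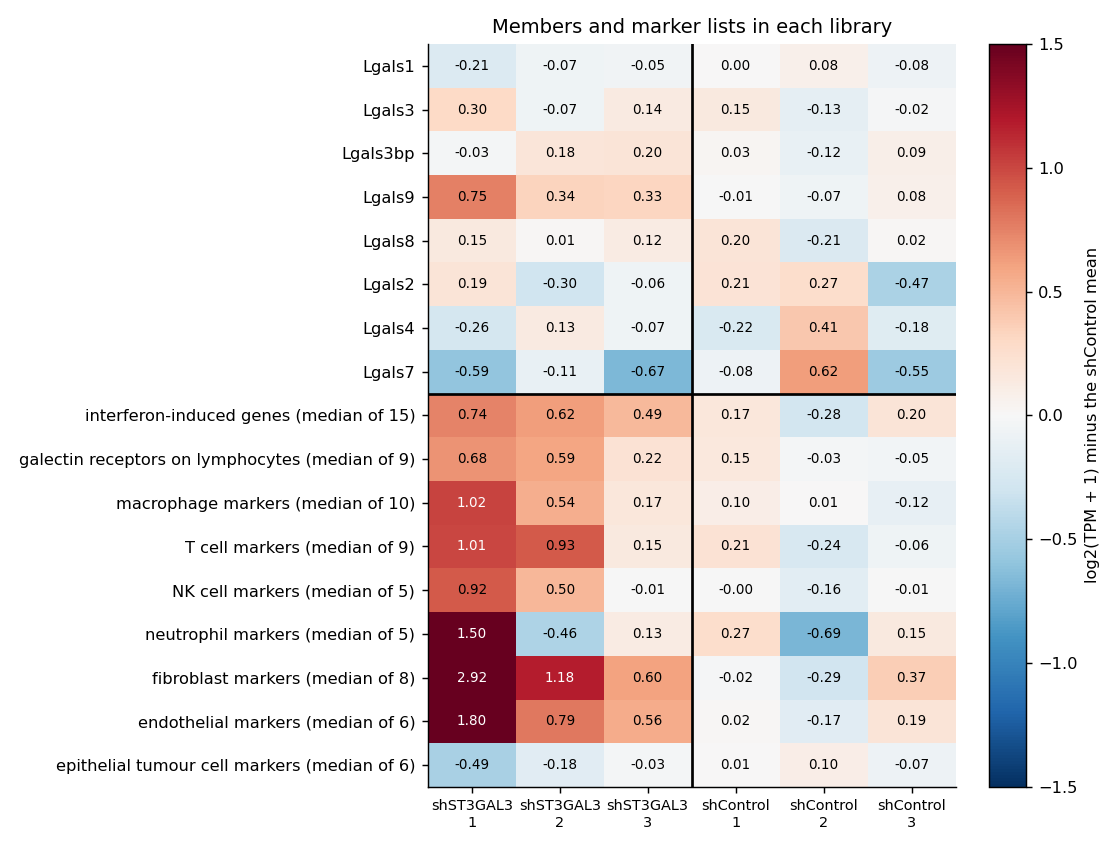
Difference of log2(TPM + 1) from the shControl mean in each library, for the 8 members and for the median of each listed gene group; the colour scale ends at 1.5 on either side. Lgals9 stands at 0.75, 0.34 and 0.33 in shST3GAL3 1, 2 and 3, while the macrophage median stands at 1.02, 0.54 and 0.17 and the fibroblast median at 2.92, 1.18 and 0.60.

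Of 9 genes listed as receptors of galectin-9 and galectin-3 on lymphocytes, 0 were called by limma over all genes. Of these, 5 had shST3GAL3 values all above shControl (15.7% of all genes did). The log2 fold changes centred on a median of 0.50 (0.38 without shST3GAL3 1). Which cells these transcripts came from was not tested. Cd44, of this list, stood at 233.37 to 285.42 TPM over the libraries, where the leukocyte transcript Ptprc stood at 27.85 to 47.76 TPM. Cd40, a costimulatory receptor of antigen-presenting cells, stood at 24.0 ± 2.78 TPM in shST3GAL3 and 14.0 ± 3.01 TPM in shControl tumours (SD, n = 3 each; limma adjusted p = 0.380). Tnfrsf4, the costimulatory receptor OX40, stood at 14.57, 6.39 and 6.37 TPM in shST3GAL3 1, 2 and 3, against 4.10, 3.78 and 3.75 TPM in shControl 1, 2 and 3. Tnfrsf9, a costimulatory receptor that galectin-9 binds, stood at 82.5 ± 9.02 TPM in shST3GAL3 and 68.1 ± 3.09 TPM in shControl tumours. Havcr2, which encodes TIM-3 and is named here after its values were seen, stood at 16.89, 13.01 and 10.21 TPM in shST3GAL3 1, 2 and 3, against 13.10, 5.78 and 8.32 TPM in shControl 1, 2 and 3, with overlap.

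Among 17 tested galectin-binding surface and matrix glycoproteins, 0 were called over all genes, 7 lay wholly above shControl and 0 wholly below (15.7% and 7.76% of all genes), and their log2 fold changes had 0.29 as the median. The integrin gene Itga5 stood at 104.18, 45.65 and 55.15 TPM in shST3GAL3 1, 2 and 3, against 41.39, 34.53 and 36.28 TPM in shControl 1, 2 and 3, and Itga1 at 10.45, 8.05 and 6.01 TPM in shST3GAL3 1, 2 and 3, against 5.07, 4.99 and 5.76 TPM in shControl 1, 2 and 3. Both were highest in shST3GAL3 1. The transferrin receptor gene Tfrc had a log2 fold change of -0.46 (SE 0.16, limma adjusted p = 0.380), with overlap. The median was 0.16 without shST3GAL3 1.

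The 19 enzymes that build or cap the galactose ends centred on a log2 fold change of -0.08 (median, -0.12 to 0.02 with 1 library left out), with 3 wholly above shControl, 2 wholly below and 0 called over all genes. These counts were near the 15.7% and 7.76% of all genes, and St3gal3, the target of the hairpin, was 1 of the 2. The 2 below were St3gal3 itself and C1galt1c1, the chaperone of the enzyme that adds galactose to O-linked chains, at 21.6 ± 3.51 TPM in shST3GAL3 and 29.3 ± 2.98 TPM in shControl tumours (SD, n = 3 each). B4galt1, which adds the galactose that galectins bind to N-linked chains, stood at 77.5 ± 14.6 TPM in shST3GAL3 and 58.5 ± 2.27 TPM in shControl tumours (limma adjusted p = 0.380). The sialidase gene Neu1, of lysosomes, stood at 21.3 ± 3.57 TPM in shST3GAL3 and 16.4 ± 1.98 TPM in shControl tumours, and Neu3 at 1.36 ± 0.482 and 1.14 ± 0.131 TPM. The 6 tested partners of galectins at damaged lysosomes had a median of 0.04, with Atg16l1, an autophagy gene, at 13.6 ± 1.47 TPM in shST3GAL3 and 11.7 ± 0.414 TPM in shControl tumours.

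Outside the members, the galectin-related gene Lgalsl, whose product lacks galactose binding, stood at 10.70, 5.90 and 5.07 TPM in shST3GAL3 1, 2 and 3, against 3.84, 3.81 and 4.69 TPM in shControl 1, 2 and 3. The groups did not overlap, and the log2 fold change was 0.63 (SE 0.26, limma adjusted p = 0.384). Lgals12, known from fat cells, was listed at 0.17 TPM or less, and the lens gene Grifin at 0.

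Patterns most like those of the 3 members that varied most were sought among 12168 genes, by the root mean square difference of centred log2(TPM + 1) values over the 6 libraries, which share the groups and the standing of shST3GAL3 1. For Lgals9 the nearest were Susd6 (0.0253), the water channel gene Aqp1 (0.0379) and the sulfotransferase gene Chst12 (0.0476). Susd6 stood at 63.78, 48.02 and 46.14 TPM in shST3GAL3 1, 2 and 3, against 37.68, 36.71 and 38.79 TPM in shControl 1, 2 and 3. For Lgals7 they were the fatty acid receptor genes Ffar2 (0.133) and Ffar4 (0.153) and the sterol synthesis gene Nsdhl (0.170), each highest in shControl 2. For Lgals2 they were Gramd2 (0.0879), AA465934 (0.113) and Upp2 (0.120).

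Of the interferon regulatory factor letters found in the Lgals9 promoter, a match was also held by 9 of the 12 listed interferon-induced genes with a promoter window. Among 10155 tested genes with a window, 408 held one. Their median log2 fold change was 0.08, and 23.0% of them lay wholly above shControl, where the median over all 10155 was 0.02 and the share 16.2%. Without the listed interferon-induced genes the values were 0.08 and 22.3% over 399 genes. Only the listed genes were left out, and Lgals9 itself was counted in both sets. The part of such matches in the Lgals9 difference was not tested.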

How the data were processed

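RNA sequencing of 6 tumours was analysed, grouped by sample title into 3 shST3GAL3 and 3 shControl libraries. The deposited values, 1 per gene and library with 2 decimals, were taken as TPM because they sum to between 999999 and 1000001 in each library; no header names the unit. Among tools, fastp, HISAT and RSEM are listed in the submitters' processing notes, with GRCm39 as build. Versions, the annotation release and strandedness are not given here by any source. The deposited files also give a gene length in bases. TPM keeps no depth, so no counting intervals were given, and the replicates alone set the precision.

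The 14207 genes that reached 1 TPM in at least 3 libraries were fitted on log2(TPM + 1) with limma 3.58.1 (R 4.3.3, variance trend on) and the group as the only term. That scale understates changes of low genes. P-values were adjusted by Benjamini-Hochberg over all genes tested, with a threshold of 0.05. Single values were also compared by exact permutation over samples. The procedure was tested on simulated data. The changes simulated were larger than that of any member, so detection of smaller changes was not tested. No simulated library stood apart as shST3GAL3 1 did.

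The members, the 7 related and 12 marker lists and the alternatives were chosen with earlier results of these data known. Named were all members, St3gal3, up to 3 genes of each list with the smallest p (a selection is printed) and the 3 nearest patterns of the 3 most variable members. Alternatives were other pseudocounts, filters, scalings, library weights, the replicate number as a block and leaving out each library. The gene-by-gene method for library weights and the ratios to Ptprc, Cd68 and keratins were added after seeing the data. Promoters came from RefSeq on GRCm38.p6, another build than that of the files, and were matched by symbol.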

Additional observations from a re-analysis of the deposited data

How the results depend on the processing

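The 8 members stayed uncalled in every alternative run, with 0 called each time, and Lgals9 kept a positive log2 fold change throughout (limma adjusted p between 0.138 and 0.662). The replicate block left 1 gene called and gave Lgals9 an adjusted p of 0.332. Same-numbered libraries showed little shared deviation over genes (correlations of 0.0145, -0.0799 and 0.0402). Being deviations from means of 3 libraries, these values cannot exclude a pairing by number. The count of all genes called was 2 with a pseudocount of 0.1 or 0.5, 0 with the stricter filter, which also removed Lgals7, and 8 with library weights, against 1; leaving out 1 library gave 1 to 3. With library weights the log2 fold change was -0.0055 for Lgals3 and 0.082 for Lgals4. Leaving out 1 library gave -0.29 to 0.077 for Lgals2, -0.18 to 0.14 for Lgals4 and -0.012 to 0.19 for Lgals8, so their signs rest on single libraries. The log2 ratio ranged from -0.13 to 0.17 for Lgals9 over Ptprc and from -0.18 to 0.022 for Lgals9 over Cd68. The damaged-lysosome list had a median of -0.022 with quantile normalization. Of genes with an unadjusted p under 0.05, 70.8% were higher in shST3GAL3, against 54.1% with median-ratio scaling and 46.3% with quantile normalization, where no member changed sign. The cause of these shifts was not tested. Lgals3bp had an unadjusted limma p of 0.048 with library weights and 0.0467 without shST3GAL3 1, but was called in neither. The depth of the libraries is unknown, so no limit from it can be given.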
